A study of Homo sapiens with 14 samples.

Results

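The RNA of 8 genes of zinc handling was followed in MDA-MB-231 breast cancer cells and lines edited from them, the 6 metallothionein genes MT1E, MT1F, MT1G, MT1M, MT1X, and MT2A, together with their activator MTF1 and the zinc exporter SLC30A1. They were chosen by their names among the 19410 genes of the expression table. A row was found for 7 of them, and MT1M was not analysed here. Of these, 6 passed the filter on low values that was set for testing, a level of at least 1 TPM (transcripts per 1000000) in at least 2 of the 14 libraries, and MT1G did not. MT1A, the other metallothionein gene that passed this filter, is described beside them.

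Metallothioneins are small, cysteine-rich proteins that bind zinc and copper and take up toxic metals such as cadmium. Their genes are switched on by MTF1, a transcription factor that senses free zinc and binds short promoter motifs called metal response elements. MTF1 also drives SLC30A1, which encodes the plasma membrane transporter ZnT1 that moves zinc out of the cell. Most human metallothionein genes lie in 1 cluster on the long arm of chromosome 16. In breast cancer cells MT2A is the usual main form, and the MT1 genes make closely related proteins.

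MDA-MB-231 is an established triple-negative breast cancer (TNBC) cell line. RNA-Seq was performed on untreated parental cells and on 6 untreated lines made from them with CRISPR/Cas9, all kept in DMEM with serum. SAP30-KO1 and SAP30-KO2 were targeted at SAP30, a subunit of the SIN3 corepressor complex, SIN3A/3B-DKO1 and SIN3A/3B-DKO2 (SIN3A+SIN3B-DKO1 and SIN3A+SIN3B-DKO2 in the labels) at its scaffold genes SIN3A and SIN3B, and MLL1-KO1 and MLL1-KO2 at the histone methyltransferase gene MLL1, now named KMT2A. Each of these 7 conditions had 2 libraries. The SAP30-KO lines were made with different guide RNAs, as were the MLL1-KO lines, whereas 1 guide RNA was used for each of SIN3A and SIN3B. Each edited line was a mixture of several single KO cells that had been picked after puromycin selection and expanded, and the parental cells are the only control in the table. A difference that all 6 lines share therefore cannot be told apart from a difference between picked cells and the parental culture. Nothing in the labels says that the 2 libraries of a condition came from separate cultures, so the spread between them may be technical. In bulk RNA, fewer cells with a transcript and less of it per cell cannot be told apart.

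The targeted RNAs were examined first. SAP30 RNA was 78.9 and 82.8 TPM in parental cells and between 2.75 and 4.96 TPM in the 4 SAP30-KO libraries. KMT2A, listed under its older symbol MLL, was 56.7 and 49.0 TPM in parental cells, while MLL1-KO1 had 17.4 and 15.8 TPM and MLL1-KO2 25.7 and 27.7 TPM. It was also called lower in both SAP30-KO lines, with 31.65 and 23.01 TPM in SAP30-KO1 and 35.43 and 31.34 TPM in SAP30-KO2. SAP30-KO1 thus overlapped with MLL1-KO2 in KMT2A RNA. In the libraries labelled SIN3A/3B-DKO, SIN3B RNA was lower than in parental cells (log2 change -0.61 and -0.71). SIN3A RNA was higher in them (0.47 and 0.31). RNA level does not measure protein, so loss of the SIN3A protein was not tested here. The paper reports that both scaffold proteins were knocked out and that its edited cells were checked by immunoblot. Every SIN3A/3B-DKO value below is that of the libraries labelled so. All 14 libraries had high VIM (5740 to 8800 TPM), CD44 (267 to 611), AXL (711 to 1000.0), and CAV1 (356 to 659), at most 0.191 TPM of ESR1, 0.139 of PGR, and 1.25 of CDH1, and up to 19.2 TPM of EPCAM. Of the markers of other cells, CD3E and CDH5 had at most 1 read in any library, PTPRC stayed at or below 0.603 TPM and COL1A2 at or below 0.368, while PECAM1 reached 3.97 TPM and COL1A1 13.2. Whole reads, recovered from the steps in which low values rise, numbered between 18415036 and 23162682 per library.

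Of the 8 members, 4 had an entry in the RefSeq promoter table, MT2A, MT1X, SLC30A1, and MTF1. The first 3 are printed because they carry matches to the metal response element. The letters searched were the core TGCGCNC, where N is any base, and its variant TGCACNC, on both strands, and no 2 matches overlapped in these genes. The 250 bases before each gene start are given 5′ to 3′ on the strand of the gene, with matches in capitals, and a match on the opposite strand appears as its reverse complement. The MT2A bases are chr16:56642246-56642495 (plus strand), those of MT1X chr16:56716132-56716381 (plus strand), and those of SLC30A1 chr1:211752504-211752753 (minus strand). The sequences are from the RefSeq table, which was built on GRCh38.p14, and the GRCh37 coordinates were found by exact match.
MT2A: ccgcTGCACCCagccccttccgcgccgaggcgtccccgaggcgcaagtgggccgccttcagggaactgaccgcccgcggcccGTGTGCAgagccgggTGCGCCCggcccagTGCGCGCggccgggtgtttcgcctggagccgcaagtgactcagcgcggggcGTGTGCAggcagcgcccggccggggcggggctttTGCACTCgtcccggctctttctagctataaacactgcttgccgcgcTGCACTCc
MT1X: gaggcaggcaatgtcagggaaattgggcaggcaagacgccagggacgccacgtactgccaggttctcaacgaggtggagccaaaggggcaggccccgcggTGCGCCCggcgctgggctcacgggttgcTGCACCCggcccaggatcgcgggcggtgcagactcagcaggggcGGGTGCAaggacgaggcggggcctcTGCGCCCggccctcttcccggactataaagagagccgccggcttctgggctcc
SLC30A1: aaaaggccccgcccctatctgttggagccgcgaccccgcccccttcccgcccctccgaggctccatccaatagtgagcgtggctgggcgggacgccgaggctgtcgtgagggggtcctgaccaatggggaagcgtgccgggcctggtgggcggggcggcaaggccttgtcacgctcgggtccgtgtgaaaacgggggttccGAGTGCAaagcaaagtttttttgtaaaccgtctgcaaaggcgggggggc
In the whole window of 300 bases, which goes on for 50 bases past the gene start, MT2A held 8 cores, 2 of the form TGCGCNC and 6 of the form TGCACNC, and 5 of the 8 read along the gene strand. MT1X held 4 cores, SLC30A1 held 2, and the MTF1 window held 0. The last core of MT2A and the second core of SLC30A1 lay past the gene start, at 30 and 24 bases, and are not printed. At least 1 core was found in 29.6% of the 35116 promoters of the table, at least 2 in 8.6%, at least 4 in 0.601%, and at least 8 in 7 promoters. A match of this length is a description of the letters and not a bound site.

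**Figure D1:**
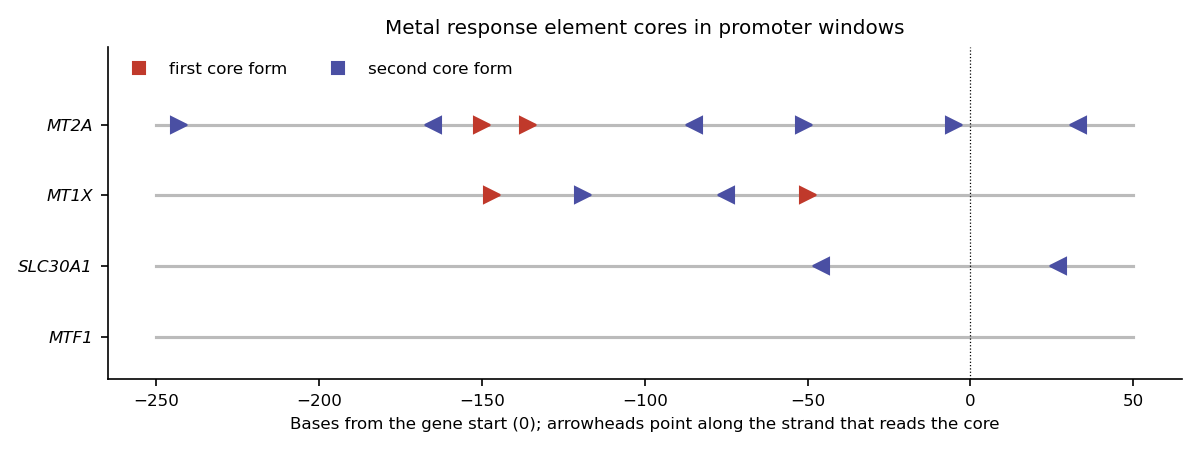
Positions of metal response element cores in the promoter windows of MT2A, MT1X, SLC30A1, and MTF1, in bases from the gene start. Each arrowhead is 1 core and points along the strand that reads it, red for the first form searched and blue for the second. MT2A has 8 cores, MT1X 4, SLC30A1 2, and MTF1 none in its window.

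TPM are values per length of gene scaled to the same total in every library, so levels can be compared between genes, and where some genes rise the values of the rest are pushed down. The 6 lines were each set against the same pair of parental libraries by limma on log2(TPM + 0.5), over 13540 genes. A call required an adjusted p (Benjamini-Hochberg) under 0.05 together with a change of at least 1.5-fold. MT1X was the 1 member of 6 called in SAP30-KO1 and again in SAP30-KO2, higher both times, where 7.80% and 7.44% of all genes were called higher and 7.86% and 8.12% lower. The SIN3A/3B-DKO1 line had 1 member called higher, MT1F, against 7.76% of all genes called higher and 8.66% lower. In SIN3A/3B-DKO2, limma called 0 members (13.6% of all genes in either direction, 7.56% lower and 813 of the 13540 genes higher), 3 members had an unadjusted p under 0.05, and limma's voom on the recovered reads also called 0. MLL1-KO1 had 1 member called higher (MT1X, against 6.89% of all genes) and 1 lower (MT1F, against 16.3%). MLL1-KO2 had 2 called higher (MT1X and MT2A, against 10.2% of all genes) and 1 lower (MT1F, against 14.9%). Without the fold minimum, an adjusted p under 0.05 was reached by 49.6% of all genes in SIN3A/3B-DKO2, the lowest share of the 6 lines, and by 64.2% in MLL1-KO2, the highest. Changes that passed the adjusted p alone are to be read against that range.

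MT2A made up most metallothionein RNA, and its level was highest in the MLL1-KO lines. The gene lies on chromosome 16 from 56642496 to 56643409 of GRCh37 (plus strand). MT2A RNA was 1329 and 1419 TPM in parental cells. SAP30-KO1 had 1396 and 1405, SAP30-KO2 had 1748 and 1803, SIN3A/3B-DKO1 had 1668 and 1683, SIN3A/3B-DKO2 had 1334 and 1320, MLL1-KO1 had 1922 and 2000, and MLL1-KO2 had 2452 and 2621. In every library it ranked between 18 and 66 among all genes by TPM. SIN3A/3B-DKO2, parental cells, and SAP30-KO1 formed the low end, and each overlapped the next in that order, whereas the values of SIN3A/3B-DKO1, SAP30-KO2, MLL1-KO1, and MLL1-KO2, in that order of level, did not overlap with each other or with the low end. MT2A rose in MLL1-KO2, by 0.88 on the log2 scale (95% interval 0.80 to 0.97, adjusted p = 8.5e-09 by limma), and a ratio of mean TPM of 1.85. In MLL1-KO1 its change of 0.51 (0.43 to 0.60, adjusted p = 7.1e-07) fell short of 1.5-fold. It was 0.35 there under quantile normalization, not called, and 0.61, called, with scaling by median ratios. SAP30-KO2 had a change of 0.37 and SIN3A/3B-DKO1 one of 0.29, both at an adjusted p under the threshold but short of 1.5-fold. In SAP30-KO1 and SIN3A/3B-DKO2 the changes were 0.03 (-0.06 to 0.11) and -0.05 (-0.13 to 0.04).

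MT1X was higher than in parental cells in all 6 lines. Its RNA, from a gene on chromosome 16 from 56716382 to 56718108 (plus strand), was 89.5 and 93.3 TPM in parental cells. SAP30-KO1 had 162 and 176, SAP30-KO2 had 200.0 and 210, SIN3A/3B-DKO1 had 129 and 132, SIN3A/3B-DKO2 had 121 and 103, MLL1-KO1 had 299 and 308, and MLL1-KO2 had 311 and 315. No 2 conditions overlapped, and the order from low to high was parental, SIN3A/3B-DKO2, SIN3A/3B-DKO1, SAP30-KO1, SAP30-KO2, MLL1-KO1, and MLL1-KO2. The step between the 2 MLL1-KO lines, -0.04 on the log2 scale (-0.19 to 0.10), and that between the 2 SAP30-KO lines (-0.27, adjusted p = 0.12 by limma) did not pass the test. MT1X rose in both SAP30-KO lines, by 0.89 (0.74 to 1.03, adjusted p = 1.2e-06) and 1.16 (1.02 to 1.30, adjusted p = 1.6e-07), and in both MLL1-KO lines, by 1.73 (1.58 to 1.87, adjusted p = 3.3e-09) and 1.77 (1.63 to 1.91, adjusted p = 2.1e-09), or 3.32 and 3.42 times the parental mean TPM in the latter. The changes of 0.51 in the first SIN3A/3B-DKO line and 0.29 in the second were below the adjusted p threshold (6.5e-05 and 0.0035) but short of 1.5-fold. MT1X thus was higher at an adjusted p under 0.05 in 6 of 6 lines, as were 6.30% of all genes, and these comparisons share their parental libraries. When only the libraries compared were in the fit, the adjusted p by limma was 0.074 in SIN3A/3B-DKO2 and stayed under 0.05 in the other lines. Of the 50-base windows of MT1X, 18.7% were also present in transcripts of other genes, among them MT1G, MT2A, and the pseudogene MT1XP1. Some MT1X reads may thus have been counted elsewhere or left out, and reads of those genes may have been counted as MT1X. The share of such windows was 4.48% for MT2A, 7.1% for MT1E, 5.76% for MT1A, 1.24% for MT1F, and 16.4% for MT1G.

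Compared directly, without the parental libraries, the genotypes were ordered at MT1X. The MLL1-KO lines were above the SIN3A/3B-DKO lines by 1.35 on the log2 scale (standard error 0.05, adjusted p = 7.0e-10 by limma) and above the SAP30-KO lines by 0.73 (standard error 0.05, adjusted p = 1.2e-07). The SAP30-KO lines were above the SIN3A/3B-DKO lines by 0.62 (standard error 0.05, adjusted p = 1.4e-06), and this difference fell to 0.56, short of 1.5-fold, without the second SIN3A/3B-DKO2 library. MT2A differed less between genotypes, by 0.50 for MLL1-KO over SAP30-KO lines and 0.58 for MLL1-KO over SIN3A/3B-DKO lines, neither of them called. These 2 differences were 0.36 and 0.47 under quantile normalization, not called, and 0.60 and 0.67, both called, with scaling by median ratios. The second was also called by voom (0.60) and without the first MLL1-KO1 library (0.59) or the first MLL1-KO2 library (0.60). Of the 6 members tested, 2 were called between MLL1-KO and SAP30-KO lines (19.8% of all genes), 2 between MLL1-KO and SIN3A/3B-DKO lines (19.9%), and 1 between SAP30-KO and SIN3A/3B-DKO lines (7.47%).

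MT1E, the third abundant form, had a different order of levels from MT2A and MT1X. Its gene lies on chromosome 16 from 56659387 to 56661024 (plus strand). MT1E RNA was 167 and 161 TPM in parental cells. SAP30-KO1 had 180.5 and 184, SAP30-KO2 had 217 and 222, SIN3A/3B-DKO1 had 228 and 221, SIN3A/3B-DKO2 had 194 and 201, MLL1-KO1 had 183 and 186, and MLL1-KO2 had 164 and 175. The highest values were in SIN3A/3B-DKO1 and SAP30-KO2, which overlapped, and MLL1-KO2 overlapped with parental cells. MT1E was not called in any line on the values as deposited. Its log2 changes ran from 0.05 in MLL1-KO2 (-0.03 to 0.13) to 0.46 in SIN3A/3B-DKO1 (0.37 to 0.54, adjusted p = 2.8e-06 by limma), and 5 of the 6 were below the adjusted p threshold. MLL1-KO lines were below SIN3A/3B-DKO lines at MT1E, by -0.25 (standard error 0.03), and no library of the first reached a library of the second.

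**Figure D2:**
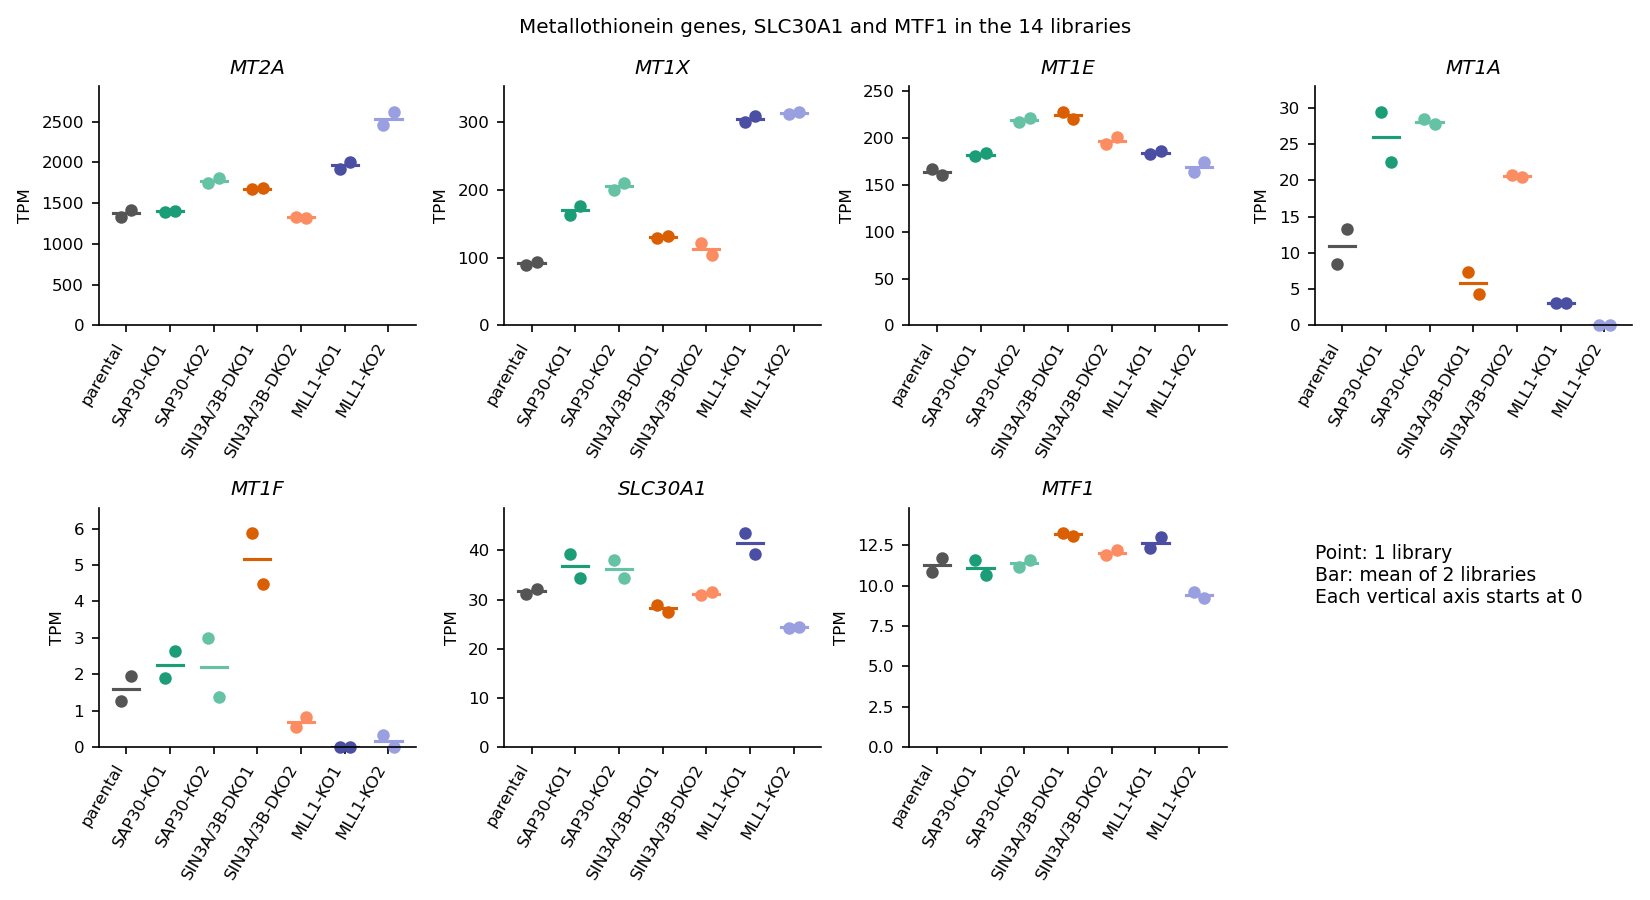
TPM of 7 genes in the 14 libraries, with 1 panel per gene and a point for each library, and a bar at the mean of the 2 libraries of a condition. MT2A and MT1X are highest in the MLL1-KO lines and MT1E in SAP30-KO2 and SIN3A/3B-DKO1. MT1A is at 0 in MLL1-KO2 and between 3.10 and 3.14 TPM in MLL1-KO1, and MT1F is at or near 0 in both MLL1-KO lines.

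MT1X made up a larger share of metallothionein RNA in every line than in parental cells. The sum over the 13 metallothionein genes with a row was 1594 and 1689 TPM in parental cells, between 1770 and 2265 in the SAP30-KO lines, between 1646 and 2045 in the SIN3A/3B-DKO lines, and highest in MLL1-KO1 (2408 and 2497) and MLL1-KO2 (2927 and 3111). MT1X was 5.61% and 5.52% of that sum in parental cells, between 9.1% and 9.85% in SAP30-KO lines, between 6.28% and 7.25% in SIN3A/3B-DKO lines, and between 10.1% and 12.4% in MLL1-KO lines. No line overlapped with parental cells in this share. For each TPM of MT2A there was 0.0674 and 0.0657 of MT1X in parental cells, and the lines ranged from 0.0775 in a SIN3A/3B-DKO1 library to 0.156 in a MLL1-KO1 library. Relative to MT1E, MT1X was 0.537 and 0.581 in parental cells, and both SIN3A/3B-DKO lines overlapped with them (0.567 and 0.598, and 0.625 and 0.515). That ratio was between 0.90 and 0.961 in the SAP30-KO lines and between 1.63 and 1.90 in the MLL1-KO lines. These shares and ratios within a library were not tested.

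**Figure D3:**
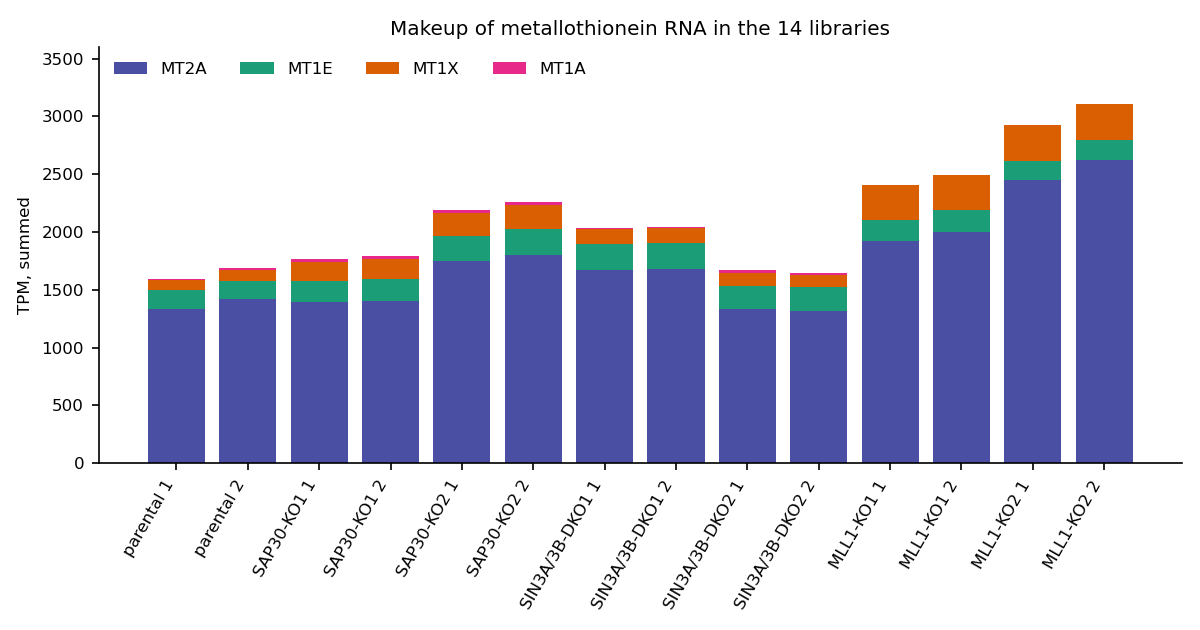
Stacked TPM of MT2A, MT1E, MT1X, and MT1A in each library, on an axis that starts at 0. MT2A is the largest part throughout, between 78.5% and 84.2% of all metallothionein RNA, and the MT1X part is thickest in the MLL1-KO lines.

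The low-level members went the other way from MT1X in the MLL1-KO lines. MT1A, a metallothionein gene on chromosome 16 from 56672578 to 56673999 (plus strand), had 24 and 37 recovered reads in parental cells (8.43 and 13.3 TPM). SAP30-KO1 had 84 and 69 (29.5 and 22.5 TPM), SAP30-KO2 had 94 and 90 (28.4 and 27.7 TPM), SIN3A/3B-DKO1 had 25 and 14 (7.43 and 4.36 TPM), SIN3A/3B-DKO2 had 69 and 67 (20.7 and 20.5 TPM), MLL1-KO1 had 10 and 10 (3.10 and 3.14 TPM), and MLL1-KO2 had 0 in both libraries. Parental cells lay in the middle, and in TPM no line overlapped with them. MT1A was at least 10.0-fold lower in MLL1-KO2 than in parental cells, with 3 reads per library taken as the limit that a count of 0 allows, and fell by 1.62 on the log2 scale in MLL1-KO1 (standard error 0.23, adjusted p = 1.1e-04 by limma). It rose in SAP30-KO1 by 1.24 and in SAP30-KO2 by 1.36 (standard error 0.23, adjusted p = 0.001 and 5.5e-04).

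The 2 lines of a genotype did not move MT1A together in every case. In SIN3A/3B-DKO1 it was called lower (-0.84, adjusted p = 0.0099 by limma) and in SIN3A/3B-DKO2 higher (0.93, adjusted p = 0.0065), a direct difference of -1.76 (standard error 0.23, adjusted p = 9.6e-04). The first call was lost without the second SIN3A/3B-DKO1 library (-0.49) or the second parental library (-0.52), with the median of neighboring genes subtracted (-0.37), and with only the 4 libraries compared in the fit, where the adjusted p was 0.11, and the second call was lost without the first parental library (0.61, adjusted p = 0.072). With only their own 4 libraries in the fit, the direct difference of the 2 lines had an adjusted p of 0.12. Between the MLL1-KO lines MT1A was at least 2.86-fold lower in MLL1-KO2. Averaged over the 2 lines of a genotype, MT1A in MLL1-KO lines was below SAP30-KO lines by -4.35 (standard error 0.16) and below SIN3A/3B-DKO lines by -3.09, and SAP30-KO lines were above SIN3A/3B-DKO lines by 1.26. The first 2 of these values depend on the 0.5 TPM added, since MLL1-KO2 had 0 reads, and voom on the recovered reads gave -5.10 and -3.82.

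MT1F had at most 22 reads in any library, so its values are coarse. Its gene lies on chromosome 16 from 56691643 to 56694610 (plus strand). There were 4 and 6 reads in parental cells. SAP30-KO1 had 6 and 9, SAP30-KO2 had 11 and 5, SIN3A/3B-DKO1 had 22 and 16, SIN3A/3B-DKO2 had 2 and 3, MLL1-KO1 had 0 and 0, and MLL1-KO2 had 1 and 0, with levels from 0 to 5.87 TPM. SIN3A/3B-DKO1 stood above all other conditions, and the MLL1-KO libraries stood below all others. MT1F rose in SIN3A/3B-DKO1 by 1.44 on the log2 scale (0.71 to 2.17, adjusted p = 0.0034 by limma). It was at least 1.91-fold lower in MLL1-KO1 than in parental cells, and its MLL1-KO2 ratio to parental was 0.102 (counting interval 0.00234 to 0.715), and it was called lower in both (adjusted p = 2.7e-04 and 9.8e-04). SIN3A/3B-DKO2, with a ratio of 0.426 (0.114 to 1.37), did not pass the test (adjusted p = 0.059), and leaving out a library of SAP30-KO2 or of MLL1-KO2 brought the adjusted p to 0.035 or 0.045, with the call. The 2 SIN3A/3B-DKO lines differed directly at MT1F by 2.26 (standard error 0.33, adjusted p = 0.0018), the only member called between them (2.23% of all genes), and with only those 4 libraries in the fit the adjusted p was 0.061. MLL1-KO lines were below SAP30-KO lines by -2.22 and below SIN3A/3B-DKO lines by -2.18, and these fitted values depend on the 0.5 TPM added.

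MT1G, on chromosome 16 from 56700642 to 56701977 (minus strand), had at most 1 read in any library and a read in 5 of the 14, so no difference was detectable at this depth. Of the 13 metallothionein genes with a row, 2 had 0 reads in all libraries, and 5 passed the filter on low values. Those with few reads, MT1H, MT3, MT4, MT1DP, and MT1JP, had at most 3 reads in any library.

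**Figure D4:**
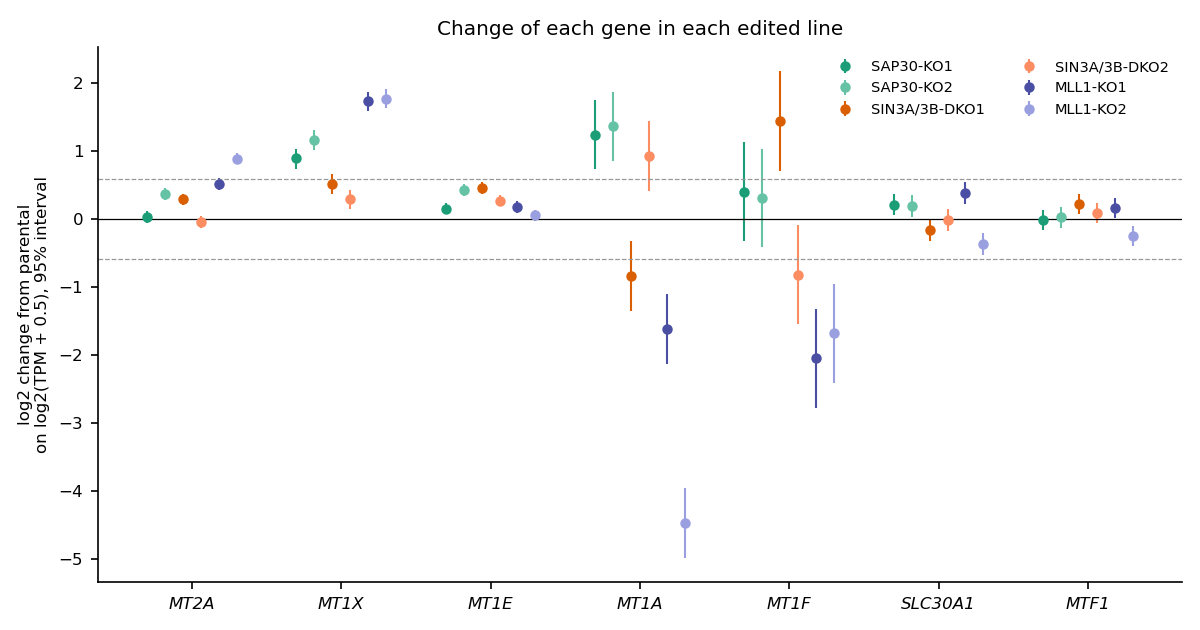
Log2 change of each gene from parental on log2(TPM + 0.5), with 95% intervals from limma, for the 6 lines in the order of the key. Dashed lines mark 1.5-fold. MT1X is above 0 in all 6 lines, from 0.29 to 1.77, while MT1A runs from -4.47 to 1.36. MT1A in MLL1-KO2 and MT1F in both MLL1-KO lines had at most 1 read per library, so their points depend on the 0.5 TPM added.

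SLC30A1, the zinc exporter, was not called in any line, and the 2 MLL1-KO lines differed from each other. The gene lies on chromosome 1 from 211744910 to 211752503 (minus strand). Its RNA was 31.2 and 32.2 TPM in parental cells. SAP30-KO1 had 39.2 and 34.3, SAP30-KO2 had 38.0 and 34.3, SIN3A/3B-DKO1 had 29.0 and 27.5, SIN3A/3B-DKO2 had 31.0 and 31.4, MLL1-KO1 had 43.5 and 39.4, and MLL1-KO2 had 24.3 and 24.5. MLL1-KO1 was the highest condition and MLL1-KO2 the lowest, on either side of parental cells, SIN3A/3B-DKO2 overlapped with parental cells, and the SAP30-KO lines overlapped with each other. The change was 0.38 (0.22 to 0.54, adjusted p = 9.8e-04 by limma) in MLL1-KO1 and -0.37 (-0.53 to -0.21, adjusted p = 0.0011) in MLL1-KO2, both short of 1.5-fold. Directly, MLL1-KO1 exceeded MLL1-KO2 by 0.75 (standard error 0.07, adjusted p = 1.6e-05), or 1.70 times in mean TPM, the only member called between these lines (10.4% of all genes). MT2A went the opposite way in that pair, -0.37 (standard error 0.04) for MLL1-KO1 against MLL1-KO2. Between the 2 SAP30-KO lines 0 of the 6 members were called by limma (0.148% of all genes), with 3 at an unadjusted p under 0.05, and voom also called 0.

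MTF1, the transcription factor itself, was not called in any line. Its gene lies on chromosome 1 from 38275246 to 38325264 (minus strand). The RNA was 10.8 and 11.7 TPM in parental cells. SAP30-KO1 had 11.6 and 10.7, SAP30-KO2 had 11.2 and 11.6, SIN3A/3B-DKO1 had 13.3 and 13.1, SIN3A/3B-DKO2 had 11.9 and 12.2, MLL1-KO1 had 12.3 and 13.0, and MLL1-KO2 had 9.61 and 9.24. SIN3A/3B-DKO1 was highest and MLL1-KO2, the line with the most MT2A, was lowest. The log2 changes lay between -0.25 in MLL1-KO2 (-0.40 to -0.10, adjusted p = 0.0082 by limma) and 0.22 in SIN3A/3B-DKO1 (0.07 to 0.37, adjusted p = 0.018), and the SAP30-KO lines were at -0.02 (-0.17 to 0.13) and 0.02 (-0.13 to 0.17). Directly, MLL1-KO1 was above MLL1-KO2 by 0.41 (standard error 0.07, adjusted p = 6.7e-04), short of 1.5-fold.

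Across the 14 libraries, which share 7 conditions of 2 and are therefore not independent, log2 levels of MT1X and MT2A had a Pearson r of 0.86 and a Spearman rho of 0.89. Those of MT2A and MTF1 had an r of -0.42 and a rho of -0.15, and those of MT2A and SLC30A1 an r of -0.32 and a rho of -0.07. For MT1E and MTF1 the r was 0.57 and the rho 0.58, and for MT1X and MT1E the r was -0.08. The genes outside the family whose pattern was most like that of MT2A were ZBED3, MAML3, ABTB1, HMGA1, and CDCP1, with an r of 0.96 or 0.97. Those most like SLC30A1 were MB21D1, HSPA1B, AURKB, ANK1, and SLC12A7, with an r between 0.91 and 0.95. By Spearman rho, 1 of the 5 genes was the same in each case, MAML3 for MT2A and MB21D1 for SLC30A1.

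Genes beside the metallothionein cluster were mostly lower in the edited lines. Of the 20 tested genes nearest to it, 10 on each side, 18 were below parental cells in each SAP30-KO and SIN3A/3B-DKO line, 17 in MLL1-KO1, and 16 in MLL1-KO2. Between 45.8% and 59.6% of all genes were below in any 1 line. In all 6 lines, 14 of the 20 were below, and the share of all genes below in all 6 was not counted. The median of the 20 lay between -0.40 and -0.49 on the log2 scale, against -0.09 to 0.03 for all genes. Flanking the cluster, OGFOD1, a hydroxylase of a ribosomal protein, had log2 changes of -0.31 to -0.65 and was called lower in 1 line, MLL1-KO2. NUDT21, a cleavage factor subunit of pre-mRNA 3′ end processing, was called lower in 5 lines (-0.59 to -0.97) and not in SAP30-KO1 (-0.51). NUP93, a nuclear pore protein, was called lower in the 2 SAP30-KO lines (-0.64 and -0.65) and not in the other 4 (-0.38 to -0.54). The homeobox genes IRX3 and IRX5, the gelatinase gene MMP2, and PLLP were called lower in all 6 lines, by as much as -2.98 for PLLP in MLL1-KO2, and GNAO1 was called higher in all 6, from 0.89 to 2.18. The shares of all genes called in the same direction in all 6 lines were not counted. By the sign of the change, MT1X and MT1E were above parental cells in all 6 lines in a stretch where most neighbors were below. MT2A was above in 5 lines, and MT1F and MT1A in 3 each. The libraries of MLL1-KO2 overlapped with parental cells at MT1E. With the running median of the 51 nearest genes subtracted, MT2A was called higher in SAP30-KO2 (0.81), SIN3A/3B-DKO1 (0.76), MLL1-KO1 (1.09), and MLL1-KO2, and MT1X in all 6 lines, with 0.98 in SIN3A/3B-DKO1 and 0.73 in SIN3A/3B-DKO2. MT1E was then called higher in SAP30-KO2 (0.87), both SIN3A/3B-DKO lines (0.93 and 0.71), and MLL1-KO1 (0.75). MT1F and MT1A were still called lower in both MLL1-KO lines, MT1F higher in SIN3A/3B-DKO1, and MT1A higher in both SAP30-KO lines and SIN3A/3B-DKO2. After this subtraction the shares of all genes called were not counted. The copy number of the region was not measured, and its part in these values was not tested.

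**Figure D5:**
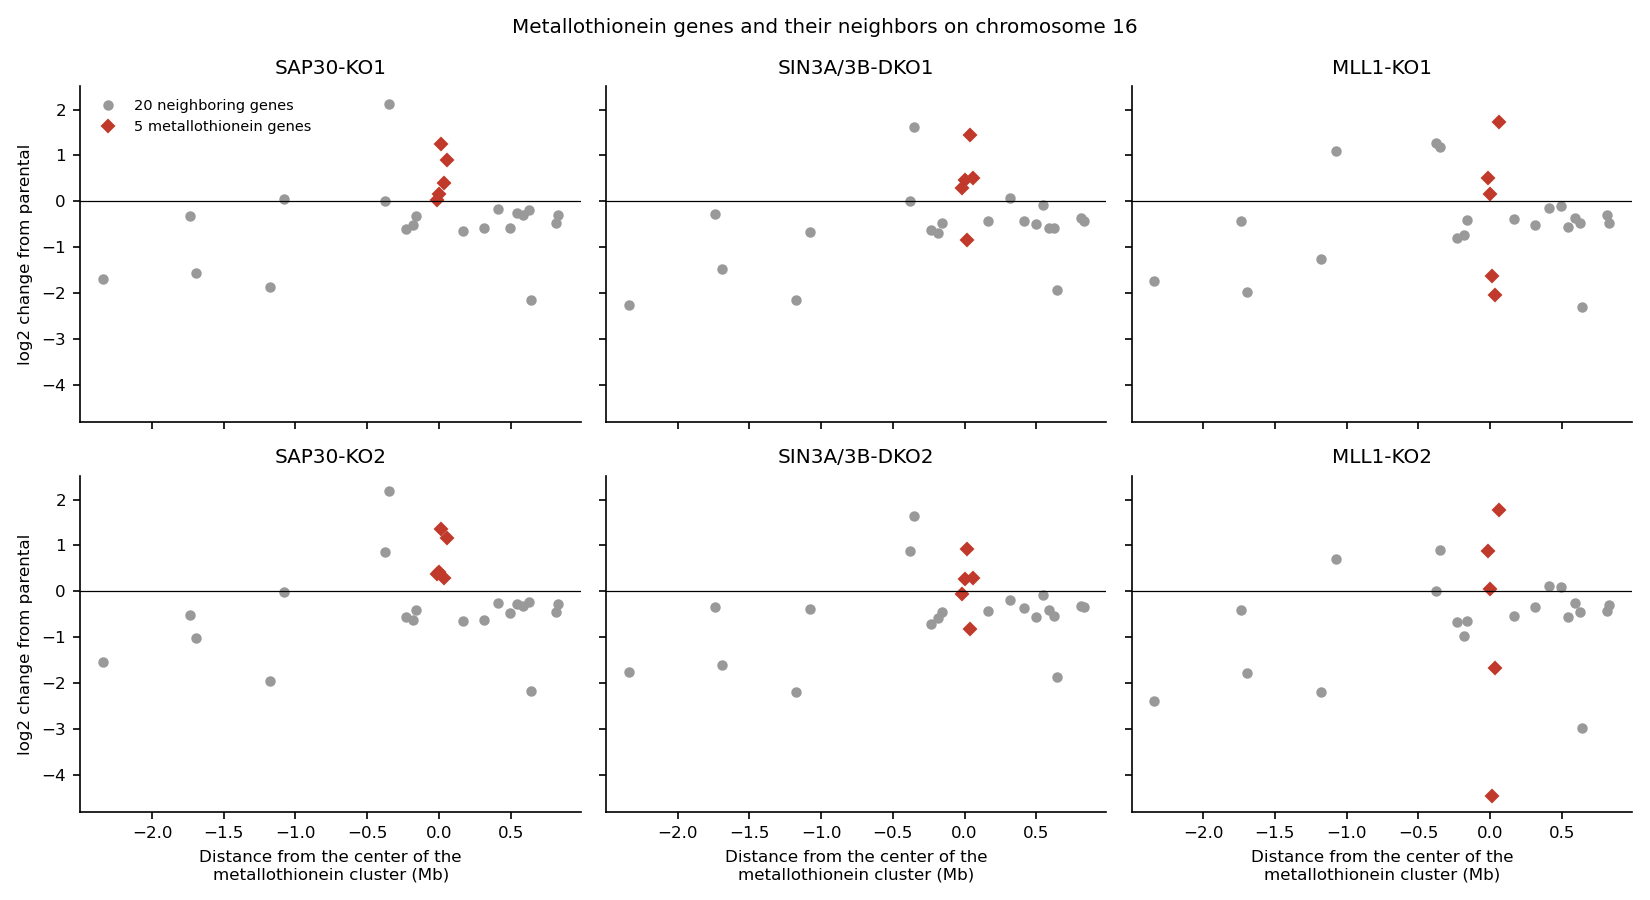
Log2 change from parental of 5 metallothionein genes (red diamonds) and the 20 nearest tested genes (gray points), against distance from the center of the cluster in megabases, with 1 panel per line. Most gray points are below 0 in every panel, 16 to 18 of 20. MT1X and MT1E are above 0 in all 6 panels, MT2A in 5, and MT1F and MT1A in 3 each.

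Other genes of metal handling were counted from fixed lists, and the shares of all genes called in each direction are those given for the members. Among zinc exporters, 5 of 9 listed genes were tested, and SLC30A4, which loads zinc into vesicles, was the only one called, higher in both SAP30-KO lines (0.66 and 0.67) and both SIN3A/3B-DKO lines (0.61 and 0.67). Its level was 5.07 and 4.73 TPM in parental cells. Short of 1.5-fold, SLC30A4 was also higher in MLL1-KO2 (0.46, adjusted p = 0.0026 by limma), while its change in MLL1-KO1 was 0.01. Of 11 tested zinc importers, SLC39A11 was called lower in both MLL1-KO lines (-0.93 and -0.64) and SLC39A10 lower in SIN3A/3B-DKO1 (-0.63), whereas SLC39A4, SLC39A13, and SLC39A14 were called higher in MLL1-KO2 (0.84, 0.82, and 0.85). The last 4 fall outside the rule for naming and were named after their values were seen, as were CCS, SLC31A2, GCLC, GCLM, TXNRD1, OSGIN1, SLC7A11, NR3C1, and SGK1 below. Of 9 copper genes, the copper chaperone ATOX1 rose in both MLL1-KO lines (0.80 and 0.88, from a parental mean of 188 TPM) and the copper-transporting ATPase ATP7B fell (-1.25 and -1.18, from 5.32 TPM). ATOX1 was also higher in the SAP30-KO and SIN3A/3B-DKO lines, by 0.20 to 0.32, at an adjusted p under 0.05 by limma but short of 1.5-fold. CCS was called higher in SIN3A/3B-DKO1 (0.65) and SLC31A2 higher in MLL1-KO2 (1.24).

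Genes of oxidative and cadmium stress, which metals can also induce, were called in both directions. Of 16 tested, between 2 and 4 were called lower and between 0 and 2 higher in each line, and the list's median ran from -0.40 in MLL1-KO2 to -0.05 in SIN3A/3B-DKO1. HMOX1, the heme oxygenase, rose in MLL1-KO1 (0.89, adjusted p = 2.3e-05 by limma) and MLL1-KO2 (1.10, adjusted p = 3.9e-06) and in SIN3A/3B-DKO1 (0.75). Short of 1.5-fold, HMOX1 was also higher in both SAP30-KO lines (0.36 and 0.38) and SIN3A/3B-DKO2 (0.33), each at an adjusted p under 0.05. FTL, the ferritin light chain, rose in both MLL1-KO lines (0.77 and 0.96), from a parental mean of 2218 TPM, and its many processed copies make its reads uncertain. TXNRD1, the cytosolic thioredoxin reductase, fell in both MLL1-KO lines (-0.80 and -0.92), and OSGIN1 (-1.18) and SLC7A11 (-0.63), the cystine transporter, were called lower in MLL1-KO1. OSGIN1 was also called lower in SAP30-KO1 (-0.69). NQO1, a quinone reductase driven by NRF2, fell in both SIN3A/3B-DKO lines (-0.91 and -1.06). Short of 1.5-fold, NQO1 was also lower in both SAP30-KO lines (-0.51 and -0.30) and both MLL1-KO lines (-0.48 and -0.38), each at an adjusted p under 0.05. GCLC, the catalytic subunit of glutathione synthesis, was called lower in all 6 lines (-0.60 to -0.66), whereas GCLM, its partner, was called higher in both SAP30-KO lines (0.76 and 0.72). The 6 comparisons share their parental libraries, and the share of all genes called lower in all 6 lines was not counted. The heat shock gene HSPA1A, whose reads cannot be told apart well from those of HSPA1B, was called lower in all lines but MLL1-KO1, from -0.60 in MLL1-KO2 to -1.91 in SIN3A/3B-DKO1.

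Glucocorticoids also induce metallothioneins, and 8 of the 9 genes of that list were tested. DUSP1 and FKBP5 fell in both MLL1-KO lines, DUSP1 from a mean of 72.1 TPM in parental cells to 20.7 and 12.4 TPM and FKBP5 from 24.8 to 5.89 and 6.64 TPM. DUSP1 also fell in both SAP30-KO lines (-0.91 and -1.29). In SIN3A/3B-DKO2 it was lower short of 1.5-fold (-0.40, adjusted p = 0.0056 by limma), and in SIN3A/3B-DKO1 its change was 0.15. FKBP5 was lower, short of 1.5-fold, in the SAP30-KO lines (-0.42 and -0.54) and in SIN3A/3B-DKO1 (-0.45). Its change of -0.14 (-0.31 to 0.02) in SIN3A/3B-DKO2 did not pass the test. KLF9 and TSC22D3 rose in the 4 SAP30-KO and SIN3A/3B-DKO lines, KLF9 by 1.11 to 1.47 and TSC22D3 by 0.81 to 1.23. Short of 1.5-fold, both were also higher in the MLL1-KO lines (0.50 and 0.27 for KLF9, 0.42 and 0.46 for TSC22D3). Each of these changes had an adjusted p under 0.05 by limma, so both genes were higher than in parental cells in all 6 lines. The receptor gene NR3C1 was called lower in 1 of the 6 lines, MLL1-KO1 (-0.71), and SGK1 was called higher in both SIN3A/3B-DKO lines and in MLL1-KO1 (1.63).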

How the data were processed

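RNA-Seq libraries of parental MDA-MB-231 cells and 6 edited lines were grouped by the submitters' labels, 2 per condition. The submitters' processing notes name hg19, FastQC 0.11.2, TopHat, and featureCounts, with no roles. The annotation, strand setting, and read length are not given in the sources used here. The deposited values are called RPKM by the authors, but each library adds up to 1000000, so they were used as TPM, and a log2 test suits both units. Low values rise in steps worth 1 read, from which whole reads were worked out for 18519 of 18519 genes (100.0%, within 0.02 of a whole number), between 18415036 and 23162682 per library, with a median of 21648530. Intervals and limits from reads cover counting error only. Of the gene names, 28 read as dates, none of them a gene named here.

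The members and lists were chosen with earlier results of these data known. The 13540 genes that reached 1 TPM in 2 or more libraries were fitted as 7 group means on log2(TPM + 0.5). The tool was limma 3.58.1 (R 4.3.3), with its variance trend switched on, which left 7 residual degrees of freedom and added 3.6 prior ones. Fold changes on this scale understate those of low genes. Calls needed a Benjamini-Hochberg adjusted p under 0.05 over all genes of a comparison and at least 1.5-fold. Named genes are the members, the targeted genes, the 20 neighbors, up to 4 genes per list called in both lines of a genotype, and the 5 genes most correlated with MT2A and with SLC30A1. Replicates of a condition differed by more than sampling noise (chi-square per degree of freedom 1.47 to 8) and were kept apart. The fit was also run on simulated reads, where 197 of 200 changed genes were recovered with 8 false calls. A simulated comparison without changes gave 1 false call. The spread of the simulated reads was fixed and not estimated from these libraries. Positions are those of GENCODE on GRCh37, and shared sequence was counted over 50-base windows of its transcripts. Alternatives were other pseudocounts, filters, scalings, fold minima, sample sets, a replicate block, voom, thinned reads, and subtraction of a running median of 51 neighboring genes. Scripts ran on Python 3.11.15. Tables used pandas 2.3.3 and numpy 2.4.6, intervals scipy 1.17.1, plots matplotlib 3.10.9.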

Additional observations from a re-analysis of the deposited data

Results flagged for a closer look

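Lines of 1 genotype differed directly by limma at a few genes. Between SIN3A/3B-DKO1 and SIN3A/3B-DKO2 the log2 difference was 2.26 for MT1F and -1.76 for MT1A, and between MLL1-KO1 and MLL1-KO2 it was 0.75 for SLC30A1 and 2.86 for MT1A. The MT1F value rests on 38 against 5 reads, and the last MT1A value is fitted against a line with 0 reads, so it depends on the pseudocount.

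Genotypes differed directly as well, each taken as the mean of its 2 lines. MLL1-KO lines were higher than SAP30-KO lines at MT1X by 0.73 and higher than SIN3A/3B-DKO lines by 1.35, and SAP30-KO lines were higher than SIN3A/3B-DKO lines by 0.62. At MT1F the MLL1-KO lines differed from SAP30-KO lines by -2.22 and from SIN3A/3B-DKO lines by -2.18. At MT1A the same 2 differences were -4.35 and -3.09, which depend on the pseudocount because MLL1-KO2 had 0 reads, and SAP30-KO lines exceeded SIN3A/3B-DKO lines by 1.26.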

How the results depend on the processing

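None of the values for the 6 tested members and MT1A changed direction where called. Counts of members moved with the fold minimum. With none, the members called higher were 3 in SAP30-KO1, 3 in SAP30-KO2, 5 in SIN3A/3B-DKO1, 2 in SIN3A/3B-DKO2, and 4 in MLL1-KO1, where 21.8% to 28.1% of all genes in a line were higher at that adjusted p. In MLL1-KO2, 3 members were lower, against 36.2% of all genes. With 2-fold, 0 were higher in SAP30-KO1 and 1 in MLL1-KO2. With the running median of neighboring genes subtracted, 3 were higher in SAP30-KO2, 4 in SIN3A/3B-DKO1, 2 in SIN3A/3B-DKO2, and 3 in MLL1-KO1. Under median-ratio scaling 2 were higher in MLL1-KO1. The shares of all genes called with 2-fold, with the subtraction, with this scaling, and in the smaller sample sets below were not counted. With only the libraries compared in the fit, 0 members differed between SIN3A/3B-DKO1 and SIN3A/3B-DKO2. Leaving out 1 library at a time, the members lower in SIN3A/3B-DKO2 were 0 to 1, those that differed between SAP30-KO and SIN3A/3B-DKO lines 0 to 1, and those between MLL1-KO and SIN3A/3B-DKO lines 2 to 3, and the other counts kept their values, from 0 to 2. Where a left-out library makes a condition 1 sample, that sample is assumed to vary like the others. Same-numbered libraries shared only a number (correlation of deviations across genes -0.07 to 0.08, mean 0.01 over 21 pairs of groups), and the replicate block changed 0 of 174 calls and counts. Quantile normalization moved the median of all genes up by 0.15 in MLL1-KO1 and 0.06 in MLL1-KO2. Genes with few reads, MT1F and MT1A in some lines, are limited by depth.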
